A study of Mus musculus with 12 samples.

Results

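The genes described here encode the machinery of MHC class I antigen presentation, and they are the 10 rows of the deposited expression table whose Ensembl identifiers map to H2-K1, H2-D1, B2m, Tap1, Tap2, Tapbp, Psmb8, Psmb9, Psmb10 and Nlrc5. The table lists 55413 genes, of which 16459 had a mean value of at least 3 and were tested, and all 10 of these genes were among them. RNA sequencing covered 12 libraries of cells labelled synovial fibroblasts, connective tissue cells of the joint lining, which grew out of collagenase-treated paws of BALB/c mice, an inbred strain. Monosodium urate (MSU) crystals, the crystals of gout, had been injected into the paws, and RNA was taken on day 18. The values are regularized log2 (rlog) expression values made by the authors, a scale on which differences of weakly expressed genes are shrunk, and the depth of each library is unknown.

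The first group, called in vitro here, held 3 libraries of primed paws, injected with crystals on day 0 and day 9, whose cells received 1 µM I-BET151 in culture for 24 h before harvest. I-BET151 inhibits the BET bromodomain proteins, which bind acetylated histones and promote transcription. The second group, called in vivo, held 3 libraries of primed paws of mice injected intraperitoneally with I-BET151 at 20 mg/kg per day, beginning 1 day before the first crystals. The primed vehicle group held 3 libraries of primed paws of mice given injections without the inhibitor. The non-primed group held 3 libraries of vehicle mice whose paws met crystals on day 9 alone. Primed paws were left paws and non-primed paws were right paws, so side and priming went together. All cultures were pooled from 2 to 3 paws and kept for 5 passages, and whether each library had its own animals is not given in the labels, so p-values measure the spread between pooled cultures.

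MHC class I molecules display peptides from inside the cell to CD8+ T cells and also engage receptors on natural killer cells. A heavy chain (H2-K1 and H2-D1 encode classical chains of the mouse) pairs with beta-2 microglobulin (B2m). Peptides are cut by the proteasome and carried into the endoplasmic reticulum by the transporter of Tap1 and Tap2, and tapasin (Tapbp) helps to load them. Interferons raise this pathway in many cell types, in part by exchanging the catalytic subunits of the proteasome for those encoded by Psmb8, Psmb9 and Psmb10, and NLRC5 is the transactivator of class I genes.

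The start regions of these genes are shown because class I and related genes are classically controlled by interferon-response elements and NF-kB sites near the start. Windows from 250 bases before to 50 bases after the annotated start were given by RefSeq (GRCm38.p6) for 8 of the 10 genes. Tap2 and Nlrc5 were not matched. The windows of H2-D1, Tapbp, Psmb8 and Psmb9 lie wholly inside the gene spans of the GENCODE annotation given below. For these genes the annotations differ in the start, and negative positions are not outside the GENCODE gene. Capitals mark every match, on either strand, to the interferon-stimulated response element searched as GAAA, any 2 bases and GAAA, the gamma-activated site searched as TTCNNNGAA, or the NF-kB site searched as GGG, any 5 bases and CC. Matches on opposite strands may overlap each other. H2-K1 (chr17:34000298-34000597, minus strand), H2-D1 (chr17:35262844-35263143, plus strand), B2m (chr2:122147437-122147736, plus strand) and Psmb8 (chr17:34197945-34198244, plus strand) are printed. The first pair is shown for the NF-kB matches they share, and the others as the genes with matches to the rarer letters searched.
H2-K1: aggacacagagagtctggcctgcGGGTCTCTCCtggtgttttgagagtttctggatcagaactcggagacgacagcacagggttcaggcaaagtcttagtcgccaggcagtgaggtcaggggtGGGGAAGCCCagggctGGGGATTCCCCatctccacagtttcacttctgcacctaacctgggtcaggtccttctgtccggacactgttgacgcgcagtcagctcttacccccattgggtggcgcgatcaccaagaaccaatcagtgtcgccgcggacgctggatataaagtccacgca
H2-D1: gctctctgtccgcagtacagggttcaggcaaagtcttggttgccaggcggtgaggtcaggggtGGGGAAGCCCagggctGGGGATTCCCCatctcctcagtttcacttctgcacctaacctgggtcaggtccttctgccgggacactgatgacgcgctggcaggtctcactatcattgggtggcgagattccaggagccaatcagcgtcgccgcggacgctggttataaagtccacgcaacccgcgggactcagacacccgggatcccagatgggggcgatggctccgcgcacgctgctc
B2m: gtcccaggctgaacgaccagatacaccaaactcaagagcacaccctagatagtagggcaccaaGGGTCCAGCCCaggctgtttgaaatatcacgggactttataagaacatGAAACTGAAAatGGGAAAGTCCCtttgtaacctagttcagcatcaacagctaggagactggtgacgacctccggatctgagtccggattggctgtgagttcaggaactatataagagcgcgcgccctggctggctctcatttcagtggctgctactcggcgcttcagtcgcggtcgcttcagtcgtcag
Psmb8: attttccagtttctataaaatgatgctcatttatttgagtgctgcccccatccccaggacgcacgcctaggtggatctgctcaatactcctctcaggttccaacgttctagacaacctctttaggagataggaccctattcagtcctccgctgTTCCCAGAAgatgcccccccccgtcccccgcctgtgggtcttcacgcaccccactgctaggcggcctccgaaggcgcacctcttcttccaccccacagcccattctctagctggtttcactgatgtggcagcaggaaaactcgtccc

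Both heavy chain windows held the run GGGGATTCCCC, from -111 to -101 relative to the start in H2-K1 and from -171 to -161 in H2-D1. The table has another start for H2-K1, from which the run lies at -125 to -115. Aligned without gaps at an offset of 60 bases, these windows were identical at 176 of 240 bases, 73.3%. B2m was the only one of the 8 with the exact letters searched for the interferon-stimulated response element, GAAACTGAAA from -139 to -130. Variants that differ from these letters were not searched. The searched letters occur in 3.44% of the 32851 mouse promoter windows. Psmb8 alone held the letters searched for the gamma-activated site, TTCCCAGAA from -97 to -89, found in 8.30% of windows. The NF-kB letters occurred in 5 of the 8 and in 50.8% of all windows, CCAAT in 6 of the 8 and in 37.4%, and TGACG in 5 of the 8 and in 20.8%. The windows of Tap1 and Psmb9 overlap by 275 of 300 bases and both hold all 3 of these motifs, so that 1 stretch is counted for 2 genes. A match is only a run of letters, and its absence says nothing of a factor.

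All 10 genes are protein-coding, and 7 of them lie on chromosome 17 (GRCm38, GENCODE annotation). Psmb9 (34181987 to 34187764, minus strand), Tap1 (34187553 to 34197225), Psmb8 (34197721 to 34201454) and Tap2 (34203527 to 34216321) are neighbours there. Psmb9 and Tap1 run in opposite directions and overlap by 212 exonic bases, 495 bases separate Tap1 from Psmb8, and 2072 bases separate Psmb8 from Tap2. Tapbp (33915899 to 33929292) and H2-K1 (33996017 to 34000347) lie on one side of these 4 genes and H2-D1 (35262730 to 35267499) on the other. B2m is on chromosome 2 (122147686 to 122153083), and Psmb10 (105935735 to 105938444) and Nlrc5 (94434356 to 94527272) are on chromosome 8. Some of the counted sequence is not private to these genes. Of the 50-base words of the annotated transcripts, 9.63% in H2-K1 and 12.8% in H2-D1 also occur in other genes, mostly other class I genes, against 2.87% or less in the other 8 genes. Antisense genes overlap 24.9% of the exonic bases of Tapbp, 14.7% of those of Psmb8 and, by Gm15821 alone, 14.1% of those of Tap2, and the strand setting of the counting is not given in the sources used here. BALB/c mice carry other H2 alleles than the reference strain, and how that moved the counts was not tested.

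The label of synovial fibroblasts was checked against marker genes, and 5 libraries went against it. The mean over 14 melanocyte lineage genes was 13.08 to 14.59 in the libraries labelled in vivo 2 and 3 and non-primed 1, 2 and 3, against 5.59 to 6.75 in the other 7. The mean over 10 fibroblast genes was 6.02 to 10.57 in those 5 libraries and 14.36 to 15.13 in the other 7, and over 12 macrophage genes it was 3.50 to 6.35 and 7.85 to 9.49. Of the 11 T and NK cell genes 9 were below 3 in every library, and values of the others reached 5.31. Of the 8 dendritic and B cell genes 5 were below 3 in every library, and values of the others reached 8.87. The 5 libraries are called melanocyte-rich here. In vivo 1 correlated across genes with the in vitro libraries at 0.986 to 0.992, and with in vivo 2 and 3 of its own group at 0.891 and 0.897. In vivo 2 and 3 correlated with each other at 0.996 and with the non-primed libraries at 0.963 to 0.983. Whether these libraries are mixed cultures or carry exchanged labels was not tested, so every in vivo and non-primed value is that of the library so labelled. In these bulk samples fewer cells of a type and less RNA per cell cannot be told apart.

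Levels per length, the rlog value minus the log2 of the exonic length in kilobases, put the 10 genes in order. The length joins the exons of all annotated transcripts of a gene, so the order depends on the annotation. In the primed vehicle libraries B2m was highest at 17.71 ± 0.43 (SD, n = 3), followed by H2-D1 at 14.74 ± 0.51, H2-K1 at 14.49 ± 0.42 and Tapbp at 13.24 ± 0.45. Psmb10 stood at 10.13 ± 0.14, Tap2 at 9.62 ± 0.21, Psmb8 at 9.14 ± 0.63, Tap1 at 8.97 ± 0.48, Nlrc5 at 7.95 ± 0.24 and Psmb9 at 6.29 ± 0.54. The gaps between H2-D1 and H2-K1, between Tap2 and Psmb8 and between Psmb8 and Tap1 were within the larger SD of each pair. B2m, H2-D1, H2-K1, Tapbp and Psmb10 held the first 5 places in that order in all 4 groups. Psmb8 was 7th in primed vehicle and 8th in in vitro libraries, and 10th in in vivo and non-primed libraries.

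**Figure D1:**
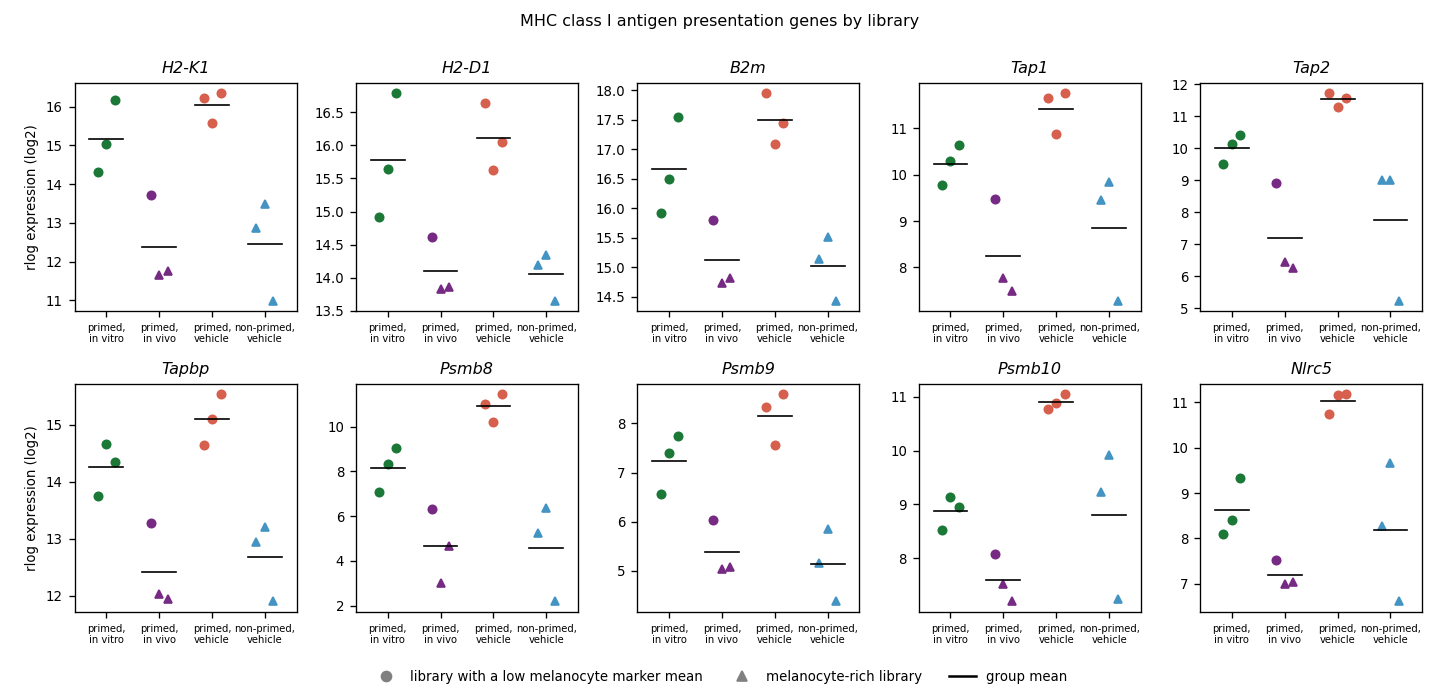
The rlog expression value (log2, vertical axis) of each of the 10 genes in each library, by group, with bars at the group means. Every in vivo and non-primed point lies below every primed vehicle point for all 10 genes, and the in vitro points lie above every in vivo point for all 10 and overlap primed vehicle for 5 genes.

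Treatment in culture was compared with primed vehicle to ask what 24 h of I-BET151 did to cells of primed paws, and this comparison had no melanocyte-rich library on either side. All 10 genes had lower means after treatment, with a median difference of -1.05 against -0.02 over all genes tested. The transactivator Nlrc5 and the immunoproteasome subunits Psmb8 and Psmb10 showed the largest differences, -2.42, -2.75 and -2.03, and the heavy chain gene H2-D1 the smallest, -0.32. With limma over all 12 libraries none of the 10 was called at an adjusted p under 0.05, a threshold that 2.76% of genes passed downward, and 3 of the 10 and 3922 genes had an unadjusted p under 0.05. With limma over the 6 libraries of the comparison 5 of the 10 fell, Nlrc5, Psmb8, Psmb10, Tap1 and Tap2, where 16.9% of all genes fell and 13.4% rose. The same 5 genes were lower in every in vitro library than in every primed vehicle library, as were 25.7% of genes. Some cell markers moved in the fit of the 6 libraries too, where Mitf and Slc24a5 of 14 melanocyte genes fell by 1.65 and 2.85, Cd14 of 11 tested macrophage genes by 2.61, Pdgfra of 10 fibroblast genes by 0.95, Itgax of 2 tested dendritic and B cell genes by 2.07, Vwf of 4 tested endothelial genes by 1.30 and Krt10, the 1 tested keratinocyte gene, by 1.23, and the fibroblast gene Twist1 rose by 1.34. The marker means were 5.60 to 6.06 in in vitro libraries and 6.36 to 6.75 in primed vehicle libraries for melanocytes, 14.36 to 14.83 and 14.71 to 15.13 for fibroblasts, and 7.85 to 9.49 and 8.50 to 9.34 for macrophages. Their part in the differences was not tested.

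Nlrc5 had values of 8.11, 8.42 and 9.32 in in vitro libraries, against 10.75, 11.16 and 11.19 in primed vehicle libraries. The groups were well apart, and the difference was -2.42 ± 0.63 (SE of the 12-library fit, as elsewhere unless stated, n = 3 per group; limma adjusted p = 0.055 over 12 libraries and 0.0035 over 6). Psmb8, the immunoproteasome subunit with chymotrypsin-like activity, had 7.08, 8.33 and 9.05 in in vitro libraries and 11.03, 10.22 and 11.46 in primed vehicle libraries. It differed by -2.75 ± 1.09 (limma adjusted p = 0.159 over 12 libraries and 0.0103 over 6), with no overlap and a gap of more than 1 between the nearest libraries. Psmb10, which takes the place of the trypsin-like subunit, had 8.52, 9.14 and 8.96 in in vitro libraries and 10.77, 10.89 and 11.05 in primed vehicle libraries. Both groups were tight, and the difference was -2.03 ± 0.56 (limma adjusted p = 0.0636 over 12 libraries and 0.00204 over 6). Psmb9, the third of these subunits, had 6.56, 7.41 and 7.75 in in vitro libraries and 8.33, 7.55 and 8.60 in primed vehicle libraries. These overlapped, and its difference of -0.92 ± 0.50 was called in neither fit (limma adjusted p = 0.291 and 0.119).

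The transporter genes were intermediate. Tap1 had 9.77, 10.30 and 10.65 in in vitro libraries, against 11.64, 10.87 and 11.76 in primed vehicle libraries, a difference of -1.19 ± 0.68 (limma adjusted p = 0.326 over 12 libraries and 0.0249 over 6). Tap2 had 9.50, 10.12 and 10.42 in in vitro libraries, against 11.73, 11.30 and 11.59 in primed vehicle libraries, a difference of -1.52 ± 0.98 (limma adjusted p = 0.384 and 0.00564). For each transporter gene the groups did not overlap, by the narrower margin for Tap1. Tapbp, which bridges the transporter and the heavy chain, had 13.75, 14.67 and 14.34 in in vitro libraries and 14.65, 15.10 and 15.55 in primed vehicle libraries. Its groups met at one end, and the difference of -0.84 ± 0.44 was called in neither fit (limma adjusted p = 0.279 and 0.0692).

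The chains of the class I molecule itself overlapped between the groups. H2-K1 had 14.32, 15.03 and 16.16 in in vitro libraries and 16.22, 15.57 and 16.35 in primed vehicle libraries, a difference of -0.88 ± 0.73. H2-D1 had 14.91, 15.65 and 16.79 in in vitro libraries and 16.64, 15.62 and 16.06 in primed vehicle libraries, a difference of -0.32 ± 0.45. B2m had 15.92, 16.50 and 17.55 in in vitro libraries and 17.95, 17.09 and 17.44 in primed vehicle libraries, a difference of -0.84 ± 0.45. In each of these genes in vitro 3 lay inside or above the primed vehicle range and in vitro 1 below it, and none was called in either fit. The library in vitro 3 was the highest of its group for 8 of the 10 genes and in vitro 1 the lowest for all 10. Without in vitro 3 the fit of the remaining libraries of the comparison called 7 of the 10, where 15.5% of all genes fell, adding H2-K1 at -1.37 and B2m at -1.28 (limma adjusted p = 0.0217 and 0.0259). Without in vitro 1 the difference of H2-D1 was 0.11.

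**Figure D2:**
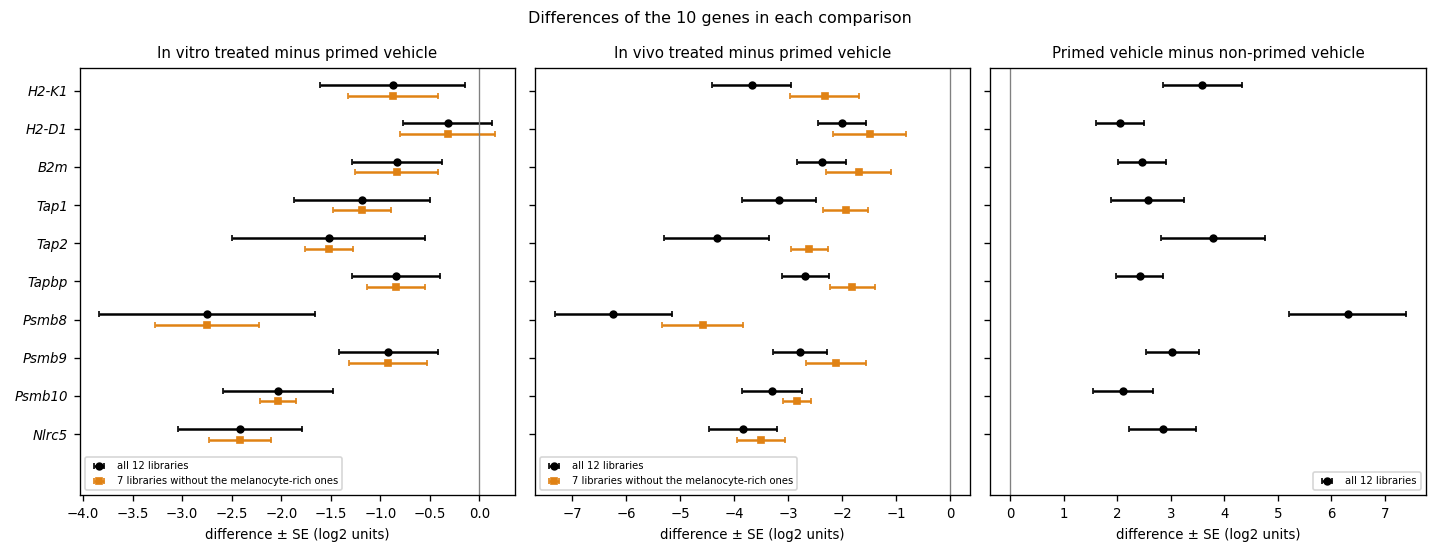
Difference of each gene (log2 units, horizontal axis) with its standard error in in vitro against primed vehicle, in vivo against primed vehicle and primed vehicle against non-primed libraries. The differences run from -2.75 to -0.32 in vitro, from -6.24 to -2.00 in vivo and from 2.05 to 6.30 in primed vehicle against non-primed libraries. Psmb8 is the farthest from 0 in each.

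Around these genes, other class I molecules were lower after treatment in culture as well. In the list of class Ib and other class I-like molecules, 9 of 12 tested genes fell in the fit of the 6 libraries. In that of all 12 libraries 1 of 12 fell, and the median difference was -1.58. Over all genes tested, 16.9% fell in the fit of the 6 libraries and 2.76% in that of all 12, with a median of -0.02. H2-Q6 and H2-Q7, Qa-2 genes, differed by -4.49 ± 1.17 and -3.52 ± 1.21, and H2-T22 fell by 1.64 ± 0.33 in both fits (limma adjusted p = 0.0296 over 12 libraries). H2-T23, which encodes the Qa-1 ligand of an inhibitory natural killer cell receptor, differed by -1.59 ± 1.04 (limma adjusted p = 0.396 over 12 libraries and 0.0209 over 6). H2-M2, named after its values were seen, had 0.61, 0.55 and 2.74 in in vitro libraries, against 7.53, 9.76 and 9.79 in primed vehicle libraries, and its mean over all libraries was too low for the test. Among T cell co-signalling and natural killer ligand genes 6 of 7 fell in the fit of the 6 libraries. Cd274, which encodes PD-L1, fell by 2.96 ± 0.67 in both fits (limma adjusted p = 0.0394 over 12 libraries), and Raet1d, a ligand of the receptor NKG2D, by 1.68 ± 0.35 (0.0304).

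The ordinary proteasome subunits showed smaller differences. The constitutive subunits Psmb5, Psmb6 and Psmb7, for which the immunoproteasome subunits are exchanged, differed by -0.29 ± 0.19, -0.07 ± 0.09 and -0.33 ± 0.10, and Psmb7 alone fell in the fit of the 6 libraries (limma adjusted p = 0.0339). Of 11 other 20S subunits Psma6 alone fell, by 0.62 ± 0.11 (limma adjusted p = 0.0227 over 12 libraries). The interferon-inducible activator genes Psme1 and Psme2 differed by -0.59 ± 0.26 and -0.57 ± 0.29, and both fell in the fit of the 6 libraries (limma adjusted p = 0.0369 and 0.0235), while Psmg1, an assembly chaperone, and Psme4, another activator, rose there. The peptide loading and trimming list had 1 of 9 higher and 1 of 9 lower in the fit of the 6 libraries. These were Lnpep, an aminopeptidase, by 0.62 and Tapbpl, a relative of tapasin, by -1.25. In that fit 13.4% of all genes were higher and 16.9% lower.

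Among 19 regulators of class I genes, none was called over all 12 libraries, and 2 rose and 7 fell over the 6. Over those 6 libraries 13.4% of all genes rose and 16.9% fell. Irf1, a transcription factor of the interferon response, differed by -0.49 ± 0.18 and fell over the 6 libraries (limma adjusted p = 0.0153). Rfx5, which binds class I promoters, differed by -0.35 ± 0.18 and was called in neither fit, and Ezh2, a histone methyltransferase that represses class I genes in some tumour cells, differed by 0.45 ± 0.51 (limma adjusted p = 0.0415 over 6 libraries). Of 11 interferon receptor and signalling genes Usp18, an interferon-induced inhibitor of interferon receptor signalling, fell by 3.37 ± 0.76 (limma adjusted p = 0.0398 over 12 libraries), and 4 rose over the 6 libraries, Socs3, a feedback inhibitor of cytokine signalling, by 1.01 ± 0.17 (SE of that fit) among them. None of the 6 listed interferon genes reached the level for testing. Ifng stood at -1.82 to -1.56 in all 12 libraries, Ifnb1 at -0.92 to 1.77 with its highest values of 1.30 and 1.77 in primed vehicle 2 and 3, and Ifna4, Ifnl2 and Ifnl3 were listed at 0.

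Treatment of the mice was compared with primed vehicle to ask what systemic I-BET151 left in the cultured cells, and all 10 genes fell. The median difference was -3.24 against -0.05 over all genes tested, while 21.8% of genes fell and 17.9% rose. Every in vivo library was below every primed vehicle library for all 10 genes, as for 26.4% of genes. The same primed vehicle libraries serve here, for in vitro treatment and for priming, so the 3 comparisons are not independent. Beside these falls stand those of cell markers, since 5 of the 10 fibroblast genes and 5 of 11 tested macrophage genes fell and 4 of the 14 melanocyte genes rose. Called or not, the fibroblast genes differed by -5.05 to -2.14 (median -3.99) and the macrophage genes by -5.87 to -0.67 (median -2.43). The melanocyte genes differed by 0.49 to 7.24 (median 4.36). In vivo 2 and 3 were melanocyte-rich and in vivo 1 was not, and the part of cell content in the falls was not tested.

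Psmb8 had 6.32, 3.01 and 4.67 in in vivo libraries, against 11.03, 10.22 and 11.46 in primed vehicle libraries, and fell by 6.24 ± 1.09 (limma adjusted p = 0.00388). Psmb9 had 6.04, 5.03 and 5.07 in in vivo libraries and fell by 2.78 ± 0.50, and Psmb10 had 8.07, 7.53 and 7.20 and fell by 3.31 ± 0.56. All of these subunits were highest in in vivo 1, which was still below each primed vehicle library. Nlrc5 had 7.53, 6.99 and 7.03 in in vivo libraries and fell by 3.85 ± 0.63 (limma adjusted p = 0.0032). Tap1 had 9.48, 7.77 and 7.50 in in vivo libraries and fell by 3.17 ± 0.68, and Tap2 had 8.93, 6.44 and 6.26 and fell by 4.33 ± 0.98.

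H2-K1 had 13.72, 11.65 and 11.75 in in vivo libraries, against 16.22, 15.57 and 16.35 in primed vehicle libraries, and fell by 3.68 ± 0.73 (limma adjusted p = 0.00639). H2-D1 had 14.61, 13.83 and 13.86 in in vivo libraries and fell by 2.00 ± 0.45. B2m had 15.80, 14.73 and 14.83 in in vivo libraries and fell by 2.38 ± 0.45, and Tapbp had 13.28, 12.03 and 11.93 and fell by 2.68 ± 0.44. Each of these genes was again highest in in vivo 1. The limma adjusted p of the 10 genes lay between 0.0032 and 0.0098.

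With in vivo 1 as the only library of its group, in a fit of the 7 libraries that were not melanocyte-rich, 8 of the 10 genes fell, where 11.8% of all genes fell. This fit assumes that the lone library varies like the others. The differences were -3.51 ± 0.45 for Nlrc5, -4.59 ± 0.75 for Psmb8, -2.83 ± 0.26 for Psmb10, -2.12 ± 0.56 for Psmb9, -2.61 ± 0.34 for Tap2, -1.94 ± 0.42 for Tap1, -1.82 ± 0.41 for Tapbp and -2.33 ± 0.64 for H2-K1. H2-D1 at -1.49 ± 0.68 and B2m at -1.70 ± 0.60 were not called (limma adjusted p = 0.159 and 0.0866). In vivo 1 had a fibroblast mean of 14.45 and a macrophage mean of 7.86, against 14.71 to 15.13 and 8.50 to 9.34 in primed vehicle libraries. In this fit the median difference was -0.10 over fibroblast, -0.25 over macrophage and -1.22 over melanocyte genes. Single markers differed by more, among them Cd14 by -4.32, Dcn by -3.54, Itgam by -2.89 and Mitf by -2.07. Others were higher, among them C1qb by 1.06 and Sox10 by 1.35. Their part in the differences of the 10 genes was not tested.

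Of the class Ib and class I-like list, 11 of 12 genes fell in in vivo libraries, with a median of -3.96. With in vivo 1 alone, in the 7-library fit, the median was -1.99. H2-Q6 fell by 6.83 ± 1.17, H2-Q7 by 6.29 ± 1.21, H2-T10 by 5.83 ± 0.79 and H2-T23 by 4.25 ± 1.04. With in vivo 1 alone H2-Q7 was not called, at -4.41 (limma adjusted p = 0.0506), and H2-T23 fell by 2.24. In peptide loading and trimming 3 of 9 fell, Tapbpl by 2.82 ± 0.52, the trimming aminopeptidase Erap1 by 1.80 ± 0.41 and the chaperone Pdia3 by 1.00 ± 0.30. Lnpep and Ide rose. Over all genes tested, 21.8% fell and 17.9% rose. Psmb5 fell by 0.79 ± 0.19 and Psmb7 by 0.41 ± 0.10, and Psmb6 differed by -0.07 ± 0.09. Psma6, Psma2 and Psmb2 fell among 11 other 20S subunits, by 0.87 ± 0.11, 0.53 ± 0.12 and 0.48 ± 0.14. Psme2 fell by 1.57 ± 0.29 and Psme1 by 1.11 ± 0.26, and 4 of the 7 activator and assembly genes rose, with Psmg1 the largest at 0.86 ± 0.17. With in vivo 1 alone, in the 7-library fit, Tapbpl was lower by 1.63 and Erap1 by 0.82. Pdia3 differed by -0.17, Ide by 0.61 and Lnpep by 0.83. In that fit Psmb5 at -0.42, Psmb7 at -0.43, Psma2 at -0.29 and Psmb2 at -0.19 lost their calls (limma adjusted p = 0.0785, 0.056, 0.177 and 0.341), and Psma6 fell by 0.83, Psme1 by 0.99 and Psme2 by 0.95.

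Among the 19 regulators, 10 fell and 4 rose in in vivo libraries, where 21.8% of all genes fell and 17.9% rose. Irf7 and Irf9, interferon response factors, fell by 4.90 ± 0.98 and 2.80 ± 0.63, Irf1 by 0.98 ± 0.18 and Rfx5 by 0.54 ± 0.18, and Ezh2 rose by 2.29 ± 0.51. Ezh2 stood at 11.41 in in vivo 1, against 13.71 and 13.75 in in vivo 2 and 3. Of 11 interferon receptor and signalling genes 4 fell, Usp18 by 4.48 ± 0.76, Ifnar2, a receptor chain of type I interferon, by 1.78 ± 0.34, and the feedback inhibitor Socs1 by 1.63 ± 0.35 among them. MHC class II genes, which serve CD4+ T cells, fell in 3 of 5, H2-Ab1 by 4.30 ± 1.32, H2-DMb1 by 3.33 ± 0.73 and H2-Eb1 by 2.38 ± 0.68. In co-signalling and natural killer ligands 5 of 7 fell, Cd80 by 5.95 ± 1.17, Cd274 by 2.74 ± 0.67 and Raet1e by 2.34 ± 0.39.

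Most of the differences just named were smaller with in vivo 1 alone, while those of Usp18 and Cd274 were larger. With 1 library in the group, only their sizes are given. In that 7-library fit the regulator Irf9 differed by -2.07, Irf1 by -0.95, Ezh2 by 0.75, Irf7 by -4.19 and Rfx5 by -0.44. Of the interferon receptor and signalling genes Usp18 was lower by 5.06 and Ifnar2 by 0.98. Socs1 differed by -0.95, and Jak1, of the same list, by 0.75. Of the class II genes H2-DMb1 was lower by 1.63, and H2-DMa, which helps to load class II molecules, was higher by 1.42. H2-Ab1 differed by -1.01 and H2-Eb1 by -0.58. In co-signalling and natural killer ligands Cd80 differed by -3.28, Cd274 by -3.68 and Raet1e by -1.73. Not all genes of that list were lower.

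**Figure D3:**
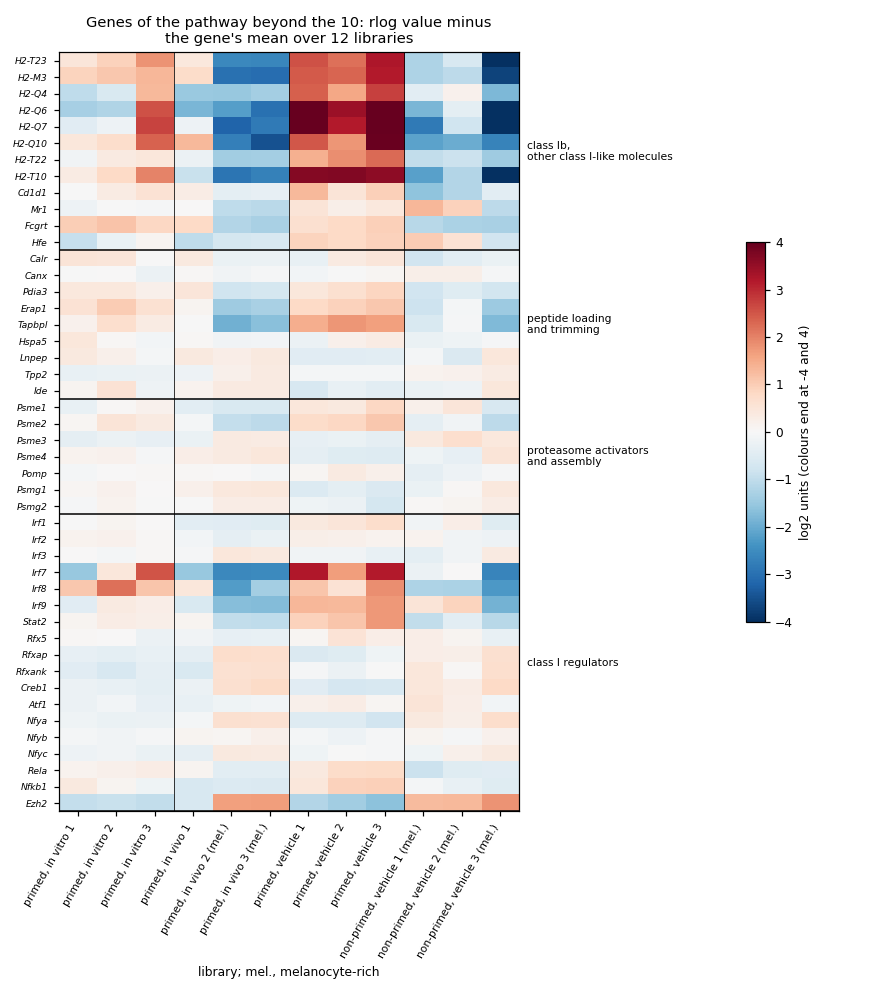
Expression of other genes of the pathway in each library, as the rlog value minus the mean of the gene over 12 libraries (colour, log2 units, ending at -4 and 4). H2-Q6, H2-Q7 and H2-T10 are highest in the 3 primed vehicle libraries, while Mr1 and Fcgrt have their highest group means in non-primed and in vitro libraries. Most of the loading and activator genes vary much less.

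In vitro and in vivo treatment were set against each other directly. None of the 10 genes was called with limma, 0% of the 16459 genes were, while all 10 and 5341 genes had an unadjusted p under 0.05. The differences ran from 1.27 for Psmb10 to 3.49 for Psmb8, higher in the in vitro libraries, and every in vitro library was above every in vivo library for all 10 genes, as for 11.6% of genes. Without in vivo 1 that group kept only the melanocyte-rich libraries in vivo 2 and 3. The same model then called 8 of the 10 as higher in vitro, with H2-K1 at 3.47 ± 0.69 (limma adjusted p = 0.00264). It called 8085 genes, 27.2% of all tested as higher, so these counts turn on that library, in vivo 1. The part of cell content in them was not tested. In vivo 1 alone was below every in vitro library for all 10 genes, as for 22.2% of genes, and the 7-library fit called none of them and 0% of all genes, at differences from 0.75 for Tap1 to 1.84 for Psmb8 (limma adjusted p of 1.00 for each), with 4 of the 10 and 563 genes at an unadjusted p under 0.05.

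The effect of an earlier crystal injection was read from primed vehicle against non-primed libraries, and all 10 genes rose. The median difference was 2.71 against 0.05 over all genes tested, while 28.9% of genes rose and 22.9% fell. Every primed vehicle library was above every non-primed library for all 10 genes, as for 33.7% of genes. Every non-primed library was melanocyte-rich and no primed vehicle library was, and all 14 melanocyte genes fell, all 10 fibroblast genes rose and 7 of 11 tested macrophage genes rose. Priming and this difference in cell markers cannot be told apart.

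Psmb8 had 11.03, 10.22 and 11.46 in primed vehicle libraries, against 5.24, 6.36 and 2.19 in non-primed libraries, and rose by 6.30 ± 1.09 (limma adjusted p = 0.00207). Non-primed 3 was the lowest of its group, as it was for all 10 genes. Psmb9 had 8.33, 7.55 and 8.60 in primed vehicle libraries and 5.16, 5.86 and 4.37 in non-primed libraries, and rose by 3.03 ± 0.50. Psmb10 had 10.77, 10.89 and 11.05 in primed vehicle libraries and 9.23, 9.92 and 7.25 in non-primed libraries, and rose by 2.11 ± 0.56. Of the subunits Psmb10 was the most even among primed vehicle libraries. Nlrc5 had 10.75, 11.16 and 11.19 in primed vehicle libraries and 8.28, 9.66 and 6.61 in non-primed libraries, the widest spread of the transactivator in any group, and rose by 2.85 ± 0.63. Tap1 had 11.64, 10.87 and 11.76 in primed vehicle libraries and 9.44, 9.85 and 7.28 in non-primed libraries, and rose by 2.57 ± 0.68. Tap2 had 11.73, 11.30 and 11.59 in primed vehicle libraries and 9.01, 9.00 and 5.24 in non-primed libraries, and rose by 3.79 ± 0.98.

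H2-K1 had 16.22, 15.57 and 16.35 in primed vehicle libraries, against 12.88, 13.49 and 11.00 in non-primed libraries, and rose by 3.59 ± 0.73 (limma adjusted p = 0.00356). H2-D1 had 16.64, 15.62 and 16.06 in primed vehicle libraries and 14.19, 14.34 and 13.65 in non-primed libraries, and rose by 2.05 ± 0.45. B2m had 17.95, 17.09 and 17.44 in primed vehicle libraries and 15.15, 15.51 and 14.44 in non-primed libraries, and rose by 2.46 ± 0.45. Tapbp had 14.65, 15.10 and 15.55 in primed vehicle libraries and 12.93, 13.21 and 11.90 in non-primed libraries, and rose by 2.42 ± 0.44. In all of these genes the non-primed libraries lay at least 1 log2 unit below the lowest primed vehicle library.

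Of the class Ib and class I-like list 10 of 12 genes were higher in primed vehicle than in non-primed libraries. Among them were H2-Q7 by 7.03 ± 1.21, H2-Q6 by 6.66 ± 1.17, H2-T10 by 6.18 ± 0.79 and H2-T23 by 4.82 ± 1.04. Tapbpl, Erap1 and Pdia3 rose by 2.42 ± 0.52, 1.71 ± 0.41 and 1.32 ± 0.30 and were the 3 of 9 loading and trimming genes that did. Over all genes tested, 28.9% rose and 22.9% fell in this comparison. Psmb5 rose by 0.71 ± 0.19, and Psmb6 at 0.07 ± 0.09 and Psmb7 at 0.23 ± 0.10 were not called. Psma6, Psmb2 and Psma2 rose by 0.74 ± 0.11, 0.56 ± 0.14 and 0.54 ± 0.12. Psme2 rose by 1.40 ± 0.29, Psme1 was not called at 0.54 ± 0.26, and 3 of the 7 activator and assembly genes fell, among them Psme3 by 0.81 ± 0.16 and Psmg1 by 0.57 ± 0.17.

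Of the 19 regulators 6 rose and 4 fell in primed vehicle against non-primed libraries, where 28.9% of all genes rose and 22.9% fell. Irf7 rose by 3.64 ± 0.98, Irf8 by 2.79 ± 0.67 and Irf1 by 0.65 ± 0.18, and Ezh2 fell by 2.86 ± 0.51. Rfx5 differed by 0.27 ± 0.18. Interferon receptor and signalling genes rose in 7 of 11, Socs3 by 3.21 ± 0.98, Usp18 by 2.52 ± 0.76 and Socs1 by 2.26 ± 0.35 among them. Class II genes rose in 4 of 5, H2-Ab1 by 6.67 ± 1.32, H2-DMb1 by 3.19 ± 0.73 and H2-Eb1 by 2.53 ± 0.68 among them, while Ciita, their transactivator, stood at 0.07 to 1.80 in all 12 libraries, below the level for testing. Cd80, a costimulatory ligand, and Raet1e rose by 5.68 ± 1.17 and 1.95 ± 0.39, 2 of 7 genes of their list.

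In vivo and non-primed libraries were also set against each other. None of the 10 genes was called with limma, none had an unadjusted p under 0.05, and 3366 of all genes did, with 0% called. The differences lay between -1.20 ± 0.56 for Psmb10 and 0.25 ± 0.50 for Psmb9, and a p that misses the threshold does not show that the groups were alike. In vivo 2 lay inside the non-primed range for all 10 genes, in vivo 3 for 9 and in vivo 1 for 5, against 59.7%, 57.5% and 26.6% of all genes. Without non-primed 3, the lowest library, Psmb10 at -1.97 ± 0.31 and Nlrc5 at -1.78 ± 0.45 were called (limma adjusted p = 0.00441 and 0.0279), 2812 genes were called in all, 9.08% of those tested as lower, and the difference of Psmb8 was -1.14. Among the 5 melanocyte-rich libraries alone none of the 10 and 0% of all genes were called with limma, at differences from -1.44 for Psmb10 to -0.08 for Psmb9, and none of the 10 and 269 genes had an unadjusted p under 0.05.

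Each immunoproteasome subunit was set against the constitutive subunit whose place it takes, as the difference of their rlog values in the same library, which is not a ratio per length. Psmb8 minus Psmb5 averaged -3.72 ± 0.86 in in vitro libraries, -6.71 ± 1.43 in in vivo libraries, -1.26 ± 0.72 in primed vehicle libraries and -6.85 ± 1.90 in non-primed libraries (SD, n = 3 each). Psmb9 minus Psmb6 averaged -5.88 ± 0.49, -7.74 ± 0.59, -5.02 ± 0.59 and -7.98 ± 0.68 in the same order of groups. Psmb10 minus Psmb7 averaged -4.14 ± 0.19, -5.33 ± 0.46, -2.44 ± 0.15 and -4.31 ± 1.27. In each pair the constitutive subunit had the higher value in every library. Psmb6 itself lay between 12.99 and 13.25 in all 12 libraries, and Psmb9 between 4.37 and 8.60, so that this pair followed the immunoproteasome subunit.

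**Figure D4:**
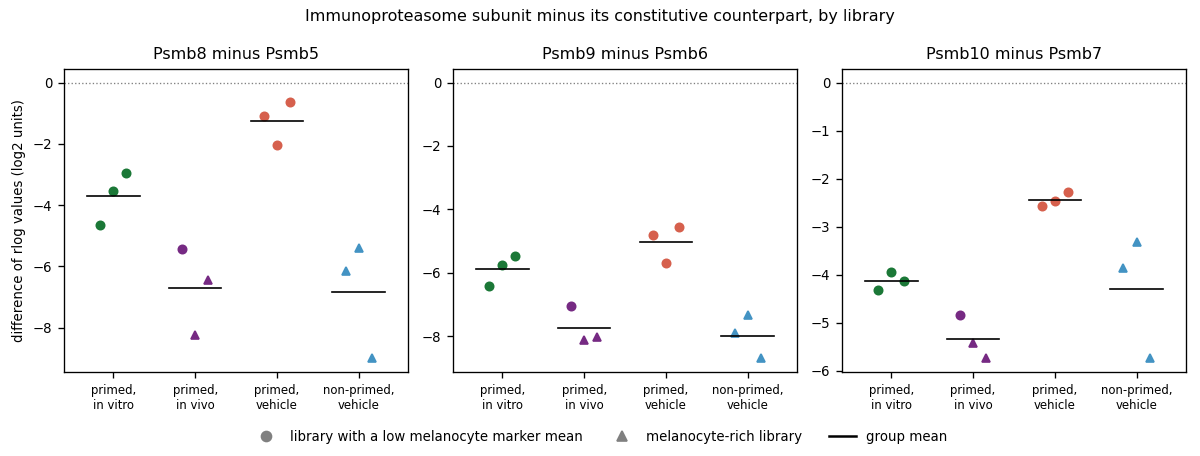
Immunoproteasome subunit minus its constitutive counterpart (difference of rlog values, log2 units) in each library, by group, with bars at the group means. Psmb8 minus Psmb5 is nearest to 0 in the primed vehicle libraries, at -2.05 to -0.64, and between -4.65 and -2.96 in the in vitro libraries.

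The genes whose values followed the mean of the 10 most closely were named by Pearson's r, as a description across libraries that share groups and cell content. Over all 12 libraries they were Garem2 (r = 0.991), Slfn8 (0.990), Zbp1 (0.990), Ifi204 (0.988) and AC160966.1 (0.987). Over the 7 libraries that were not melanocyte-rich they were Zfp385a (r = 0.998), Znhit3 (0.994), Slfn2 (0.993), Camp (0.991) and Phf11d (0.991). The ranges differed widely, since Zfp385a lay between 10.96 and 11.64 in those 7 libraries and Camp between 5.41 and 10.92. The mean of the 10 genes itself was 10.85, 11.56 and 12.10 in in vitro libraries, 10.38, 8.90 and 9.01 in in vivo libraries, 12.97, 12.54 and 13.10 in primed vehicle libraries and 10.15, 10.72 and 8.39 in non-primed libraries. Median centring and quantile normalization kept the direction of all 10 genes in both treatments against primed vehicle and in primed against non-primed. In in vivo against non-primed, quantile normalization turned the sign of H2-D1, B2m, Psmb8 and Psmb9. With quantile normalization the median of all genes moved by over 0.1 in 4 of 5 comparisons, and the median of the 10 genes was -0.97 in vitro and -2.91 in vivo against primed vehicle, and 2.25 for priming. The median of all genes under it was 0.08 in vitro, 0.19 in vivo and -0.24 for priming, against -0.02, -0.05 and 0.05 as deposited.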

How the data were processed

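RNA was sequenced from 12 libraries, 3 in each of 4 groups read from the sample titles. A stranded mRNA kit was used, per the labels' protocols. The submitters' processing notes name build GRCm38 and, with no order or role, STAR 2.6.1c, cutadapt 1.18, DESeq2 1.24.0, Subread 1.6.1 and featureCounts. The sources used here do not give the settings, the annotation release or the design of the transformation. The deposited values are the authors' log2 values, regularized (rlog), which shrinks the differences of weakly expressed genes and keeps no depth, so no count test or counting interval was possible.

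Genes with a mean of at least 3 (16459) were fitted with limma 3.58.1 in R 4.3.3, with 1 mean per group over all 12 libraries and a variance trend. Two-sided p-values were adjusted by Benjamini-Hochberg over all genes tested, with calls at an adjusted p under 0.05. The procedure was tested on simulated data. With 3 libraries a group, no exact permutation test can pass this threshold, and none was used. Libraries with a melanocyte marker mean above 10 were called melanocyte-rich. The 10 genes, the pathway lists and the markers were chosen with earlier results of these data known. Up to 3 called genes with the largest difference were named per list and comparison, beside the 10 genes, 13 genes chosen whatever their result (1 is not reported here), and the 5 genes most correlated with the mean of the 10. Alternatives were no filter, a minimum mean of 5, no variance trend, median centring, quantile normalization and a replicate block. Others were a fit of only the libraries compared and fits without the melanocyte-rich libraries. Each library of the groups compared was also left out in turn, and those of the other groups were not. Leaving out each library within the fit of the 6 in vitro and primed vehicle libraries was added after the data were seen.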

Additional observations from a re-analysis of the deposited data

How the results depend on the processing

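For in vivo against primed vehicle and for primed against non-primed, all 10 genes were called under every alternative run, except that H2-D1 and B2m were not called in vivo without the melanocyte-rich libraries, where only in vivo 1 remains. In vivo, the genes called over the whole table were 6531, against 3950 with only the libraries compared, 3365 without the melanocyte-rich libraries and 2435 to 9962 with 1 library left out.

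For in vitro against primed vehicle, 743 genes and none of the 10 were called. Without a filter 1180 genes were called, with a minimum mean of 5 470, and with quantile normalization 1155 and 2 of the 10, Psmb10 and Nlrc5. With only the libraries compared 4983 genes and 5 of the 10 were called, and without the melanocyte-rich libraries 4989 and 5. Leaving out 1 library of the groups compared gave 12 to 367 genes in the fit of all libraries. In the fit of the libraries compared it gave 4 to 7 of the 10. In that fit the genes called were 2771, 2520 and 4612 without in vitro 1, 2 and 3, and 4237, 3414 and 3731 without primed vehicle 1, 2 and 3. The difference of H2-D1 ran from -0.82 to 0.11 with 1 library left out, positive without in vitro 1 in both fits. The cause of these changes was not tested.

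Between in vitro and in vivo, 1 gene was called without a filter, and 0 to 8085 genes and 0 to 8 of the 10 with 1 library left out, the highest without in vivo 1. Between in vivo and non-primed libraries 2 genes were called with quantile normalization, and 0 to 2812 genes and 0 to 2 of the 10 with 1 library left out. There H2-D1, B2m, Psmb8 and Psmb9 changed sign to -0.0083, -0.058, -0.33 and -0.014 with quantile normalization, and to -0.21, -0.25, -0.76 and -0.081 with only the melanocyte-rich libraries. With 1 library left out, the differences that changed sign ran from -0.81 to 0.43 for H2-K1, from -1.80 to 0.089 for Tap2, from -0.21 to 0.18 for H2-D1, from -0.25 to 0.32 for B2m, from -1.14 to 0.95 for Psmb8 and from -0.13 to 0.61 for Psmb9.

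With the replicate number as a block, 173 genes were called for in vitro against primed vehicle and none of the 10, and no count of the 10 genes changed in any comparison. Libraries of the same number had correlated deviations from -0.43 to 0.37, over 0.1 in 4 of 18 pairs, and 3 of 12 libraries correlated best with their own number, so they share only a number. Without depth, the counting error of weakly expressed genes is unknown.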
